A study of Mus musculus with 8 samples.

Results

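Respiratory complex I of the mitochondrion is described here through the genes whose symbol starts with Nduf, in hearts of mice that lack SRC-2. By that rule 44 of the 18194 genes read by the array were members, 36 of them subunits (the Ndufa, Ndufb, Ndufc, Ndufs and Ndufv series) and 8 assembly factors (Ndufaf1 to Ndufaf8). The study measured RNA of whole, unstressed hearts on Affymetrix expression arrays for the mouse, with a single heart on each array. The groups were 4 SRC-2 KO mice, in which the coactivator SRC-2 (gene Ncoa2) is disrupted, and 4 wild type (WT) mice. Mice of both groups were males aged 10 to 12 weeks on the mixed C57B/6Jx129Sv background, fed ad libitum, and the methods call them age-matched littermates and give a wider age range. The question was how loss of SRC-2 changes gene expression in the resting heart, and energy metabolism was among the pathways the study followed. The labels name no cell type to which the disruption is limited, and the study describes it as a germline KO. Since whole hearts were used, fewer cells of a type and less RNA per cell cannot be told apart.

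Complex I takes electrons from NADH, passes them along a chain of iron-sulfur clusters to ubiquinone and uses the energy to pump protons across the inner mitochondrial membrane. Its peripheral arm holds the sites for NADH and ubiquinone, and its membrane arm holds the proton pumps. The core subunits, which carry out the reaction, are encoded partly in the nucleus and partly in mitochondrial DNA, and the accessory subunits surround them and stabilise the enzyme. Assembly factors build the modules of the complex and are not part of the finished enzyme. Heart muscle is dense in mitochondria and draws most of its ATP from this chain.

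Among the subunits that were read, 6 are core subunits encoded in the nucleus. The subunits encoded in mitochondrial DNA were not analysed here. A further 8 Nduf symbols, among them those of the subunits Ndufa11 and Ndufs6, share their probesets with other symbols and were not used. The members were read by 88 probesets, groups of short probes to 1 transcript, with 22 members on 1 probeset and 22 on several, and each gene was read by its brightest probeset (highest mean of the 8 arrays). Signals are intensities on a linear scale without a unit. Each array had been scaled to the same trimmed mean of 500, and comparisons were made on log2 signals. A log2 fold change is given as KO minus WT throughout, with its standard error (SE) over the hearts. In deciles of all genes by mean signal, 33 of 36 subunits and 4 of 8 assembly factors lay in the top decile. The signal of a probeset also depends on its probes, so these deciles describe signals and do not rank transcripts.

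Ncoa2 was read first, as a check of the labels. Its signal was 237, 260, 267 and 235 in the KO hearts, against 1660, 2115, 1827 and 2134 in the WT hearts. The groups lay far apart, and Ncoa2 fell in KO hearts (log2 fold change −2.95, SE 0.10 and adjusted p = 0.000588 in limma with a common prior variance, called the common-variance fit). Markers of ventricular myocytes were bright in every heart, except for Irx4 with signals of 445 to 635. The median signal of an array was 75.6 to 83.2 in KO hearts and 77.0 to 87.3 in WT hearts.

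Complex I genes had slightly higher signals in SRC-2 KO hearts as a group, and no single member passed the test. Of the 44 members, 39 had a positive log2 fold change, against 47% of all genes, and their median was 0.19 against −0.03 over all genes. After quantile normalization, which gives every array the same distribution of signals, 34 of 44 were positive and the median was 0.07. Higher values were also common among other bright genes on the deposited scale, at 541 of the 694 other genes in the brightest 4% and 167 of the 181 brightest genes. At an adjusted p under 0.05, 0 members were called in either direction in the common-variance fit, in which 0.0055% of all genes were called higher and 0.0165% lower. The trended fit, in which the spread of a gene is drawn toward that of genes with similar signal, called 0 members as well, against 0.121% of all genes higher and 0.258% lower. Without any adjustment, 5 members were higher and 0 lower at a p under 0.05 in the common-variance fit, where 3.95% of all genes were higher and 6.12% lower. Of the 694 other genes in the brightest 4%, 82 were higher and 20 lower. In the trended fit 10 members were higher and 0 lower at that p, against 5.36% and 7.28% of all genes. There 157 of the 694 bright genes were higher and 37 lower. All 4 KO hearts exceeded all 4 WT hearts in 6 members (Ndufs1, Ndufa6, Ndufa9, Ndufa10, Ndufa12 and Ndufaf4), against 3.11% of all genes, and all 4 were below them in 0 members, against 3.72%. Among the same 694 bright genes, all 4 KO hearts exceeded all 4 WT hearts in 107 and lay below them in 13. For most members the hearts of both genotypes overlapped.

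**Figure D1:**
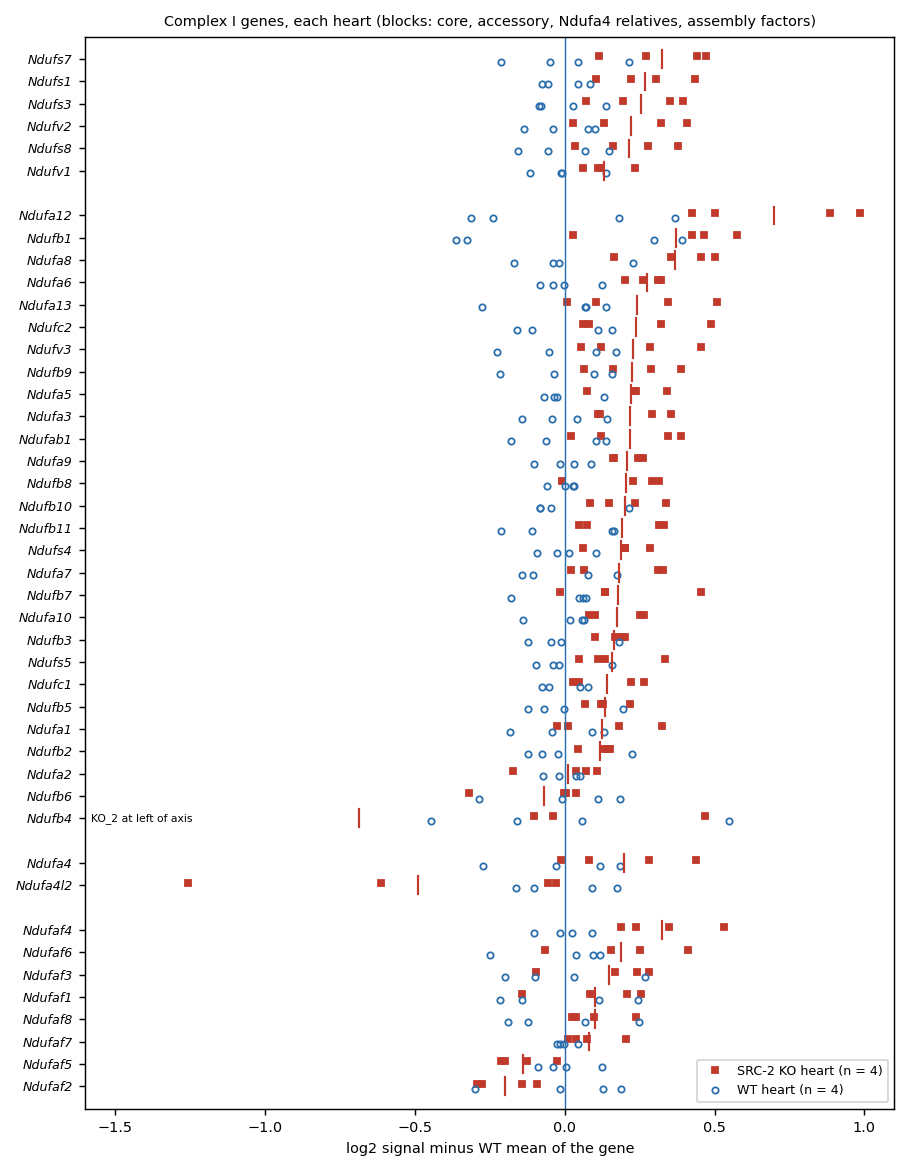
Log2 signal per heart after subtraction of the WT mean of the gene, for the 44 complex I genes in blocks (core subunits, accessory subunits, Ndufa4 and Ndufa4l2, assembly factors), each block ordered by log2 fold change. Filled squares are SRC-2 KO hearts (n = 4), open circles are WT hearts (n = 4), red bars are KO means and the blue line is the WT mean. The red bar lies right of the line for 39 of 44 genes, and 1 KO heart of the dim gene Ndufb4 lies outside the axis.

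All 6 core subunits that were read had positive log2 fold changes, with a median of 0.24 as deposited, against 5 of 6 and a median of 0.11 after quantile normalization. Ndufs1 is the largest iron-sulfur subunit of the peripheral arm. Its signal was 32520, 28076, 29763 and 25867 in KO hearts, against 24850, 25527, 23172 and 22854 in WT hearts. The lowest KO heart lay just above the highest WT heart, and the log2 fold change was 0.27 (SE 0.08 with an adjusted p of 0.489). Ndufs7, which carries the last iron-sulfur cluster before ubiquinone, had the largest log2 fold change of the core subunits. It had 44039, 38278, 43060 and 34309 in KO hearts, against 36850, 30697, 32719 and 27386 in WT hearts. KO replicate 4 lay below WT replicate 1, so the groups overlapped, with a log2 fold change of 0.32 (SE 0.12 with an adjusted p of 0.499), and the second probeset of Ndufs7 gave 0.32 as well. Ndufs3, which helps to hold the ubiquinone module together, had 32565, 28367, 31588 and 26047 in KO hearts, against 27234, 25267, 23362 and 23432 in WT hearts, a log2 fold change of 0.25 (SE 0.09). Only WT replicate 1 reached into the KO range. Ndufv2 and Ndufs8, both carriers of iron-sulfur clusters, had log2 fold changes of 0.22 (SE 0.10) and 0.21 (SE 0.10), and a dimmer probeset of Ndufs8 gave −0.06 (SE 0.29). Ndufv1, which binds NADH and the flavin, had the smallest one, 0.13 (SE 0.06). The other probesets of Ndufv1 gave 0.20 and 0.24, and on the one with 0.24 the genotypes did not overlap, with KO higher.

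Accessory subunits had a median log2 fold change of 0.20, with 26 of 28 above 0, and Ndufa12 stood first. Ndufa12 lies on the peripheral arm near the iron-sulfur clusters. Its brightest probeset (A) had 59418, 42454, 55444 and 40223 in KO hearts, against 25409, 24157, 38728 and 34018 in WT hearts. Every KO heart lay above every WT heart, and both genotypes were split, with KO replicates 1 and 3 and WT replicates 3 and 4 at the higher values of their groups. The log2 fold change was 0.70 (SE 0.22), a 1.62-fold difference of geometric means, with an adjusted p of 0.402 that ranged from 0.0512 to 0.734 over the alternatives. The next probeset (B) gave 0.55 without overlap (SE 0.17), and its two-sided exact permutation p was 0.0286, which is as low as 4 hearts per genotype permit. The other bright probeset (C), with 22980, 20840, 21990 and 19744 in KO hearts and 21687, 20831, 18060 and 19342 in WT hearts, gave 0.10 (SE 0.08, exact permutation p = 0.2), and there the groups overlapped in part. Probesets A and B carry the suffix that Affymetrix gives to probes that can bind unrelated transcripts, and C the suffix for probes shared by several transcripts, so the size of the Ndufa12 difference depends on the probeset read. Across all members, 31 of the 44 other probesets had mean signals of 1000 or more in both genotypes, and 27 of these had the sign of the brightest probeset. The 4 exceptions were probesets of Ndufa7, Ndufb6, Ndufc2 and Ndufs8. Positive values were common among bright genes on the deposited scale (541 of the 694 other genes in the brightest 4%). Agreement in sign between bright probesets therefore says little about a single member.

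**Figure D2:**
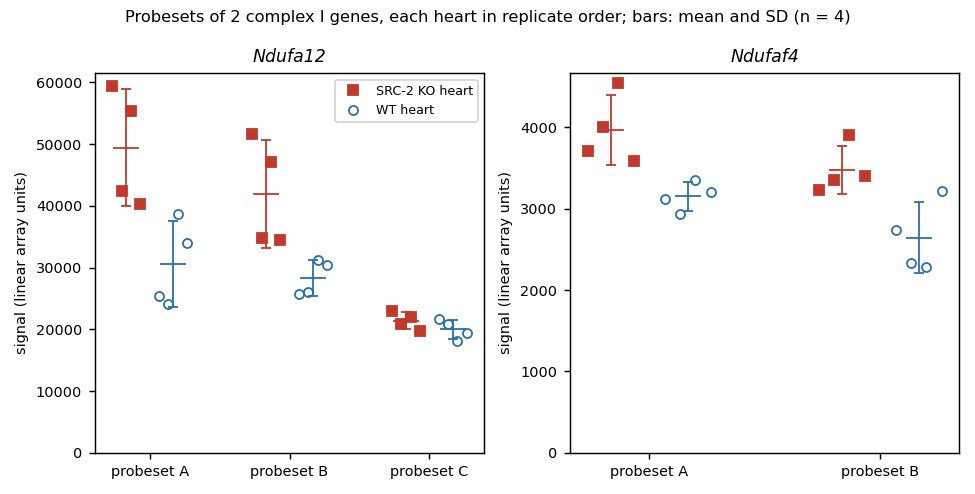
Signal on a linear scale for the bright probesets of Ndufa12 (left) and Ndufaf4 (right), with those of each gene ordered from bright to dim. Red squares are the 4 SRC-2 KO hearts and blue circles the 4 WT hearts in replicate order, and bars give the mean and SD. KO and WT hearts lie apart on probesets A and B of both genes and overlap on probeset C of Ndufa12.

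Ndufa8, a subunit on the side of the intermembrane space, had 32733, 29553, 31718 and 25944 in KO hearts, against 27068, 22853, 22526 and 20557 in WT hearts. WT replicate 1 lay above KO replicate 4, and the log2 fold change was 0.37 (SE 0.11 with an adjusted p of 0.447). Ndufa6, a peripheral arm subunit that binds the mitochondrial acyl carrier protein, had the tightest groups among the larger differences. Its signal was 28908, 27777, 28699 and 26639 in KO hearts, against 25235, 21863, 23118 and 22543 in WT hearts. These did not overlap, with a log2 fold change of 0.27 (SE 0.05 with an adjusted p of 0.440). Ndufa9, which lies near the site of ubiquinone and binds a nicotinamide nucleotide, ranged from 29169 to 31266 in KO hearts and from 24331 to 27720 in WT hearts, again without overlap, with a log2 fold change of 0.21 (SE 0.05). Ndufa5, Ndufa3 and Ndufb8, accessory subunits of the peripheral and membrane arms, had log2 fold changes of 0.22, 0.22 and 0.21 (SE 0.07, 0.09 and 0.08). In each of them at least 1 KO heart lay within the WT range. Ndufs4, whose loss causes fatal encephalopathy in mice, had 12948, 12206, 12214 and 11084 in KO hearts and 11416, 9973, 10719 and 10449 in WT hearts, a log2 fold change of 0.19 (SE 0.06). Here WT replicate 1 lay above KO replicate 4. By series, the medians on the deposited scale were 0.21 for the 14 Ndufa genes, 0.18 for the 11 Ndufb genes, 0.19 for the 2 Ndufc genes, 0.23 for the 6 Ndufs genes and 0.22 for the 3 Ndufv genes. After quantile normalization they were 0.08 for Ndufa, 0.04 for Ndufb, 0.04 for Ndufc, 0.13 for Ndufs and 0.07 for Ndufv.

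Ndufb4 and Ndufb6 were the accessory subunits with negative values. The Ndufb4 probeset was dim, with 37.7, 4.82, 39.4 and 56.1 in KO hearts, against 29.7, 59.2, 36.3 and 42.1 in WT hearts. KO replicate 2 alone was low and the other hearts overlapped, so its log2 fold change of −0.69 (SE 0.83) changed to 0.11 without that heart. Ndufb6, a membrane arm subunit, had −0.07 (SE 0.13) on its brightest probeset, whereas its other probeset, of similar signal, gave 0.17 (SE 0.05), with 15582 to 17500 in KO hearts above 14026 to 15527 in WT hearts. Ndufb1, a small membrane arm subunit, had the second highest log2 fold change among members, 0.37, with an SE of 0.23 and overlapping groups. The members with the smallest values on the positive side were Ndufa2 (0.01), Ndufaf7 (0.08) and Ndufaf8 (0.10).

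Ndufa4 and Ndufa4l2 carry the Nduf name but differ in role, and their log2 fold changes had opposite signs. Ndufa4 was first assigned to complex I and is now placed in complex IV, and Ndufa4l2 is its relative, which is induced by low oxygen in other cells. Ndufa4 had 66773, 52137, 59836 and 48806 in KO hearts, against 53435, 55938, 48291 and 40735 in WT hearts, with a log2 fold change of 0.20 (SE 0.14). Its groups overlapped. Ndufa4l2 had 220, 507, 344 and 517 in KO hearts, against 470, 595, 491 and 561 in WT hearts, with a log2 fold change of −0.49 (SE 0.30 with an adjusted p of 0.595). KO replicates 1 and 3 were low and KO replicates 2 and 4 lay within the WT range. The median of the subunits was 0.20 with and 0.21 without this pair.

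The 8 assembly factors had a median log2 fold change of 0.10, and Ndufaf4 had the largest value among them. That median moved with single hearts and was 0.18 without WT replicate 1, 0.15 without KO replicate 4 and 0.07 without WT replicate 2, and it was 0.16 when each array was centred on its median. Ndufaf4 acts with Ndufaf3 in building the ubiquinone module. It had 3715, 4008, 4549 and 3583 in KO hearts, against 3116, 2934, 3355 and 3204 in WT hearts. The groups did not overlap, and the log2 fold change was 0.33 (SE 0.09 with an adjusted p of 0.440). Its second probeset agreed in direction and size, with 3236, 3358, 3903 and 3403 in KO hearts and 2734, 2334, 2285 and 3223 in WT hearts (log2 fold change 0.40, exact permutation p = 0.0286). Ndufaf3 itself had 3272, 3443, 3541 and 2726 in KO hearts, against 3511, 2722, 2975 and 2538 in WT hearts, and 0.15 (SE 0.13), within the spread between hearts. Ndufaf6, which acts early on the membrane part of the ubiquinone module, had 0.19 (SE 0.13), and KO replicate 4 lay below 3 of the WT hearts. Ndufaf1, a member of a membrane-bound assembly complex with Ecsit and Acad9, had 2707 to 3565 in KO hearts and 2570 to 3543 in WT hearts, with a log2 fold change of 0.10 (SE 0.14). Ndufaf7, a mitochondrial protein methyltransferase, had 898 to 1028 in KO hearts and 874 to 918 in WT hearts, a log2 fold change of 0.08 (SE 0.05). Ndufaf8, the partner that stabilises Ndufaf5, had 0.10 (SE 0.11), and its groups overlapped.

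Ndufaf5 and Ndufaf2 had negative log2 fold changes. Ndufaf5 hydroxylates an arginine of Ndufs7. Its signal was 1413, 1319, 1241 and 1252 in KO hearts, against 1569, 1442, 1400 and 1351 in WT hearts, with a log2 fold change of −0.14 (SE 0.06 with an adjusted p of 0.666) and with KO replicate 1 inside the WT range. Ndufaf2 is related in sequence to Ndufa12 and holds its place in an assembly intermediate until Ndufa12 takes over. It had 1065, 1054, 1210 and 1167 in KO hearts, against 1468, 1410, 1275 and 1048 in WT hearts. WT replicate 4 lay below all KO hearts and the log2 fold change was −0.20 (SE 0.12 with an adjusted p of 0.643). The subunit Ndufa12 and the factor Ndufaf2 that precedes it thus had opposite signs, and neither passed the test.

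Whether subunits and assembly factors differed depended on how the arrays were scaled. As deposited, the median of the subunits was 0.20 and that of the assembly factors 0.10, a difference of 0.10 that is about as large as its SD between hearts of 0.098. After quantile normalization the subunit median was 0.07 and the assembly factor median remained 0.10, a difference of −0.03. The direction therefore turned. With each heart left out in turn the difference was 0.05 to 0.15 as deposited and −0.07 to −0.01 after quantile normalization. After quantile normalization 34 of 44 members had positive log2 fold changes, against 51.1% of all genes. Of the 694 other genes in the brightest 4%, 406 were positive on that scale. An unadjusted p under 0.05 toward higher values was found for 3 members, against 4.63% of all genes. These were Ndufa12, Ndufa8 and Ndufaf4, with log2 fold changes of 0.53, 0.26 and 0.30. Toward lower values there were 0 members, against 4.88% of all genes. Of the 694 bright genes, 40 were higher and 36 lower at that p. All KO hearts exceeded all WT hearts in 6 members, against 3.3% of all genes. Of these, Ndufa6, Ndufa12, Ndufaf4 and Ndufs1 were shared with the deposited scale, Ndufa5 and Ndufaf7 joined them, and Ndufa9 and Ndufa10 left. Ndufa1 alone lay below, against 3.16% of all genes.

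**Figure D3:**
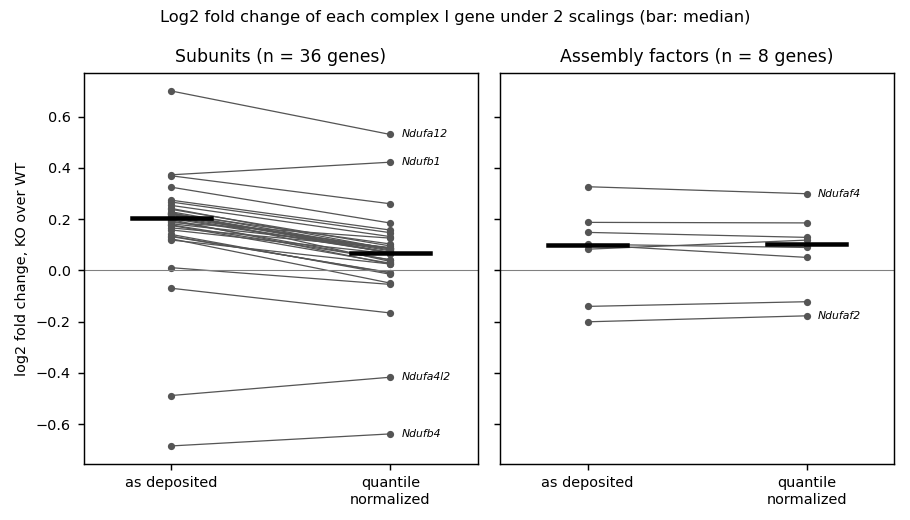
Log2 fold change, KO over WT, of each of the 36 subunits (left) and 8 assembly factors (right), as deposited and after quantile normalization. Lines join the 2 values of a gene and thick bars are medians, 0.20 and 0.07 for the subunits and 0.10 and 0.10 for the assembly factors.

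Bright genes in general shared the higher values in KO hearts. Of the subunits, 33 of 36 lay among the brightest 4% of genes, as did 0 of 8 assembly factors, a grouping chosen after the values were seen. The 694 other genes of that range had a median log2 fold change of 0.12, with 541 above 0, and the 181 brightest genes had 0.19, with 167 above 0. After quantile normalization these medians were 0.03 and 0.02. By deciles of signal over all genes, the median log2 fold change was lowest in the fifth decile, at −0.12, and highest in the top decile, at 0.09.

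The hearts did not contribute equally. As the median over subunits of log2 signal minus the WT mean, KO replicates 1 to 4 had 0.33, 0.13, 0.28 and 0.07, against 0.12, 0.06, −0.04 and −0.12 in WT replicates 1 to 4. KO replicate 1 had the highest signal of the 8 hearts in 28 of 44 members, and WT replicate 4 the lowest in 25. The genotypes overlapped, since KO replicate 4 lay below WT replicate 1. The mean signal of the whole array, which the trimmed scaling leaves free, was 1038, 967, 1008 and 953 in KO hearts and 971, 976, 941 and 908 in WT hearts. The KO hearts were in the same order as for the subunits. The WT hearts were not, since WT replicate 2 had the highest mean signal and WT replicate 1 the highest subunit median. After quantile normalization the subunit medians were 0.09, 0.06, 0.07 and 0.06 in KO hearts and 0.05, −0.04, −0.02 and 0.02 in WT hearts. These medians did not overlap, whereas the means over the same subunits did (0.00 to 0.08 in KO hearts and −0.03 to 0.03 in WT hearts). Assembly factors had 0.13, 0.18, 0.15 and −0.08 in KO hearts and 0.16, −0.06, −0.02 and −0.05 in WT hearts as deposited, with KO replicate 4 the lowest and WT replicate 1 near the top, and nearly the same values after quantile normalization. Without KO replicate 1 the median of all members was 0.15, and without WT replicate 4 it was 0.15 as well, against 0.19 with all hearts.

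**Figure D4:**
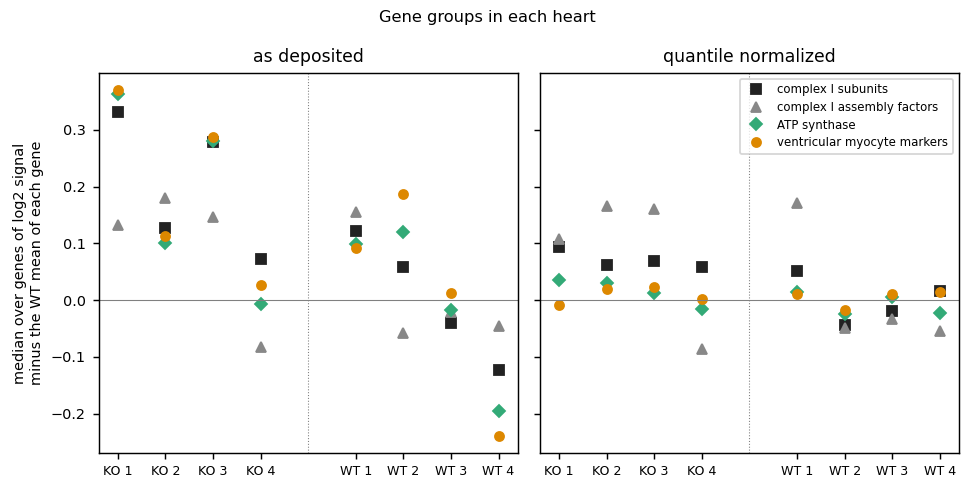
Median over the genes of a group of log2 signal minus the WT mean of each gene, for each heart, as deposited (left) and after quantile normalization (right), with the 4 SRC-2 KO hearts left of the 4 WT hearts. Groups are complex I subunits (36 genes), complex I assembly factors (8), ATP synthase (15) and ventricular myocyte markers (12). As deposited, subunits, ATP synthase and ventricular markers take similar values within a KO heart, from 0.33 to 0.37 in KO replicate 1, and after quantile normalization they lie within 0.10 of the WT mean in every heart.

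As deposited, markers of ventricular myocytes took values close to those of the subunits in KO hearts. In WT replicates 2 and 4 the gaps were wider, with 0.19 and −0.24 against 0.06 and −0.12 for the subunits. Markers of atrial myocytes and fibroblasts had log2 fold changes of the opposite sign. All 12 ventricular myocyte markers had positive log2 fold changes, with a median of 0.19 (0.00 after quantile normalization), and medians of 0.37, 0.11, 0.29 and 0.03 in KO replicates 1 to 4 against 0.09, 0.19, 0.01 and −0.24 in WT replicates 1 to 4. Their summed signal was 667937 to 853003 in KO hearts and 558984 to 741386 in WT hearts. All 12 atrial myocyte markers were on the negative side (median −1.57), with a summed signal of 20955 to 202282 in KO hearts and 164614 to 273323 in WT hearts, and so were the 12 fibroblast markers (−0.63, summed signal 63137 to 97912 in KO hearts and 94222 to 153585 in WT hearts). Macrophage markers had 0 of 10 and endothelial markers 1 of 10 above 0. Adipocyte markers had 5 of 6 above 0 (median 0.36), with a summed signal of 39913 to 48945 in KO hearts and 44036 to 48263 in WT hearts. Fabp4 (log2 fold change −0.09) made up most of that sum. Lep, Cidec and Retn were dim, with group means of 27.1 to 112.3. Smooth muscle markers had 2 of 7 (−0.12), with 30503 to 47058 in KO hearts and 23146 to 27362 in WT hearts, and that sum was mostly Acta2 (log2 fold change 0.74). Skeletal muscle markers had 3 of 8 (−0.64), with 3562 to 25351 in KO hearts and 19922 to 29880 in WT hearts. That sum was mostly Acta1 (log2 fold change −1.37, SE 0.63). Myh1, Myh2, Myh4, Tnnt3 and Actn3 were dim, with group means of at most 62.5. Blood cell markers had 4 of 7 (0.15), with 1524 to 5919 in KO hearts and 1136 to 2087 in WT hearts. The neutrophil gene S100a9 had the largest value (3.40, SE 1.32), and Hba-a1, Cd3e and Cd79a were dim, with group means of 9.9 to 21.3. In the common-variance fit no marker of these lists was called at an adjusted p under 0.05. At an unadjusted p under 0.05, 10 atrial, 5 fibroblast, 6 macrophage and 2 skeletal muscle markers were lower, against 6.12% of all genes. Higher at that p were 1 smooth muscle and 1 blood cell marker, against 3.95% of all genes, and 0 ventricular markers were higher or lower. The trended fit called 4 atrial markers and the skeletal muscle marker Tnni2 (log2 fold change −2.10) lower, against 0.258% of all genes. It called Acta2 higher, against 0.121%. The part of the cell makeup of the hearts in the complex I values was not tested.

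The other complexes of the chain shared the small positive values on the deposited scale, and their medians were smaller after quantile normalization. Complex II passes electrons from succinate to ubiquinone, and its list includes the assembly factors Sdhaf1 to Sdhaf4. It had 7 of 8 genes above 0, with a median log2 fold change of 0.18 as deposited and 0.13 after quantile normalization. The lists of complexes III, IV and the ATP synthase hold subunits only. Complex III had 9 of 9, with 0.19 and 0.04. Complex IV had 11 of 12, with 0.19 and 0.01, and the ATP synthase had 15 of 15, with 0.17 and 0.00. After quantile normalization the genes above 0 were 7 of 8 for complex II, 8 of 9 for complex III, 7 of 12 for complex IV and 8 of 15 for the ATP synthase. Complex I with its assembly factors stood between these, with 39 of 44, 0.19 and 0.07. Its subunits alone had 33 of 36, 0.20 and 0.07. No gene of these lists was called in either limma fit when adjusted over all genes. At an unadjusted p under 0.05 in the common-variance fit, 5 of the 44 complex I genes were higher, and 0 of 8 for complex II. Complexes III, IV and the ATP synthase together had 0 of 36, and 0 genes were lower in any of these lists. Of all genes 3.95% were higher at that p, and 82 of the 694 other genes in the brightest 4%. In the trended fit the counts higher were 10 of 44 for complex I, 1 of 8 for complex II and 0 of 36 for the others, against 5.36% of all genes. The difference between these lists was not tested. Among complex II genes, Sdhd, a membrane anchor, had 0.21 (SE 0.05) without overlap. Assembly factors of complex I that are named otherwise had 11 of 13 genes above 0, with medians of 0.08 as deposited and 0.09 after quantile normalization, close to those of the Ndufaf genes. There were 3 without overlap and with KO on the higher side, namely Tmem70, which also serves the ATP synthase (log2 fold change 0.31, SE 0.12), Nubpl, which delivers iron-sulfur clusters (0.22, SE 0.05), and Tmem126a (0.15, SE 0.04). The same separation, with KO higher, was found in 3.11% of all genes and in 206 of the 1820 genes in the top decile of signal. Ecsit had 0.33 (SE 0.15) and its partner Acad9 −0.23 (SE 0.16), so the members of the complex that holds Ndufaf1 differed in sign.

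The promoters of 4 members are shown because Ndufa12, Ndufa8, Ndufaf4 and Ndufa6 had the smallest p-values among the members, and because nuclear respiratory factor 1, coded by Nrf1, is a known activator of respiratory chain genes. Each window runs from 250 bases before to 50 bases after the start of the gene, 5′ to 3′ on the strand of the gene, from RefSeq on GRCm38.p6. Capitals mark matches to the motif of nuclear respiratory factor 1, searched on both strands as GCGC, then A, then any base, then GCGC.
Ndufa12, chr10:94198785-94199084, plus strand: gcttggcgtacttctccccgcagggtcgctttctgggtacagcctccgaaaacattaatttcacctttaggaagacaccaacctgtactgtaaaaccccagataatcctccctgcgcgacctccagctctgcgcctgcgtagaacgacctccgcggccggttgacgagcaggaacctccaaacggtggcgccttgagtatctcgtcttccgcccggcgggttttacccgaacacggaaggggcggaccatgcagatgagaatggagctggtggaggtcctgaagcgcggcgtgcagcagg
Ndufa8, chr2:36049289-36049588, minus strand: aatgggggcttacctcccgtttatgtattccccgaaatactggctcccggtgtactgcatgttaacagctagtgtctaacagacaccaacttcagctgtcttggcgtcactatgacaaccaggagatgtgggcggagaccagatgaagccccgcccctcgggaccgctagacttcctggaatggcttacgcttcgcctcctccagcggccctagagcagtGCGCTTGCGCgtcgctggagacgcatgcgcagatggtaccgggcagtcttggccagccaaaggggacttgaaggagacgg
Ndufaf4, chr4:24897833-24898132, plus strand: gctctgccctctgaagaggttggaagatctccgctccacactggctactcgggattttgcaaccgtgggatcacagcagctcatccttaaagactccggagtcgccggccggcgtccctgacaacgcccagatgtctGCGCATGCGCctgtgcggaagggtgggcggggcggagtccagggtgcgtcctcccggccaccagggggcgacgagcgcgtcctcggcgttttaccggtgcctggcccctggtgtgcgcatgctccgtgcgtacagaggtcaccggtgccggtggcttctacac
Ndufa6, chr15:82354242-82354541, minus strand: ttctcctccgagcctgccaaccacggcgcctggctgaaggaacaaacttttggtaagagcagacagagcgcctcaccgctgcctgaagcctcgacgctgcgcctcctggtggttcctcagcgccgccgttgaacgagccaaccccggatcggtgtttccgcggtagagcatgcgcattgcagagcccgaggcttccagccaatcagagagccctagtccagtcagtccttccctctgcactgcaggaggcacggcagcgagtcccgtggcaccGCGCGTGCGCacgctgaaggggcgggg

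A window was found for 39 of the 44 members. The motif of nuclear respiratory factor 1 was present in 7 of these 39 genes (17.9%), namely Ndufa5, Ndufa6, Ndufa8, Ndufaf4, Ndufaf5, Ndufb4 and Ndufs5, against 5.19% of all 27025 genes with a window. Their log2 fold changes ran from −0.69 for the dim Ndufb4 to 0.37 for Ndufa8, and Ndufa12, with the largest difference, held no match. A motif for ETS factors, ACCGGAAG, was in 4 members (10.3%, against 2.6% of all genes), and one for YY1, AAGATGGCG, in 5 (12.8%, against 1.64%). One for the estrogen-related receptors, TCAAGGTCA, was in 0 members, against 0.466% of all genes. These motifs were searched on both strands. Those for ETS factors and YY1 can overlap by the letters AAG, and no member held more than 1 kind of motif. The matches describe the sequence only, and binding was not measured.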

How the data were processed

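RNA of 4 SRC-2 KO and 4 WT hearts was labelled and hybridised to Affymetrix mouse arrays. Tools named in the submitters' processing notes are Affymetrix Expression Console, Partek and RMA. The deposited table holds linear intensities. Each array of the deposited table has a trimmed mean of 500 (2% left out at the top and at the bottom), and the distributions of the arrays differ, so the values are not quantile-normalized RMA values. The design had assumed log2 RMA values, and the log2 of the intensities was taken instead. Of 45101 probesets, 64 were controls, 9211 were not listed in the annotation, 932 had several symbols and 34958 had 1 symbol, and only the last were used. The brightest probeset by mean over the 8 arrays stood for each of 18194 genes.

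The KO against WT comparison was made with limma 3.58.1 (lmFit and eBayes, common prior variance) under R 4.3.3. Two-sided p-values were adjusted over all genes by the Benjamini-Hochberg method. Alternatives were a trended prior, a random variance model test as in the methods, each gene's own variance, quantile normalization with and without the trend, median centring, a floor of 50, removal of dim genes, averaging of the probesets of a gene, exclusion of probesets with the suffixes for cross-hybridisation, a replicate block, and leaving out each array in turn, which was added for the trended and the quantile-normalized fit after the values were seen. SEs are those of the difference of 2 group means without moderation. Single probesets were also tested by exact permutation over the hearts. The fits were tested on simulated data. Members, lists and tests were chosen with earlier results of these data known. The named members were, by rule, the 12 with the smallest p, the core subunits, every assembly factor, the 3 lowest log2 fold changes and the pairs Ndufa12 with Ndufaf2 and Ndufa4 with Ndufa4l2. Others, such as Ndufb1, Ndufb6 and Ndufa10, were chosen with their values in view. The gene lists were written from general knowledge. Depth does not apply to arrays, and their number limits the precision. The study gives each array as a separate mouse. Plots were made with matplotlib 3.10.9 under Python 3.11.15.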

Additional observations from a re-analysis of the deposited data

Results flagged for a closer look

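In 58 groups of 4 hearts examined, covering the members and medians named above, 2 held a heart far from the other 3, where chance flags about 1 group in 20. For Ndufb4, read by a dim probeset, KO replicate 2 had a signal of 4.82, with 37.7 to 56.1 in the other KO hearts. For the median over the assembly factors of log2 signal minus the WT mean, WT replicate 1 had 0.16, with −0.06 to −0.02 in the other WT hearts.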

How the results depend on the processing

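No member was called in either direction under any alternative, and the smallest adjusted p of a member was 0.051, for Ndufa12 in the trended fit without KO replicate 4. Over all genes, 4 were called (1 higher, 3 lower), against 69 with the trended prior, 47 with quantile normalization and the trended prior, 22 with dim genes left out, 2 with a floor of 50, and 1 both with each gene's own variance and with the mean of all probesets. Without 1 replicate, 1 to 5 genes were called, and in the trended fit 5 (without WT replicate 2) to 322 (without KO replicate 4), with 12 without WT replicate 3, 21 without WT replicate 1 or WT replicate 4, 31 without KO replicate 3 and 41 without KO replicate 2. Quantile normalization, with or without the trended prior, moved the member median to 0.0723, the subunit median to 0.0691 and the difference of subunits and assembly factors to −0.0343. The number of members above 0 was 34 to 40 in the common-variance fit under all alternatives, and 32 to 37 after quantile normalization with 1 heart left out. Ncoa2 was no longer called with the mean of all its probesets (log2 fold change −1.30). With the replicate number as a block, 0 genes were called and Ncoa2 (−2.95) was not. The replicate numbers do not pair the hearts (correlations of same-numbered deviations −0.08 to 0.12), so this block has no basis in the design. With the mean of all probesets, Ndufa3 (−0.065), Ndufb2 and Ndufc2 turned negative and Ndufb6 turned positive. Ndufc2 also turned without the probesets with cross-hybridisation suffixes, where the probeset then read gave −0.04. The sign turned for 5 members with quantile normalization, namely Ndufv1 (−0.0087 with either prior), Ndufa1 (−0.05), Ndufa2 (−0.06), Ndufb5 (−0.01) and Ndufc1 (−0.02). Ndufb4 turned without KO replicate 2 (−1.07 to 0.11 over the hearts left out). Ndufa2, at 0.01 with all hearts, and Ndufb6 also turned when certain single hearts were left out. The cause of these changes was not tested. Members near background, such as Ndufb4, and the number of arrays limit what can be called.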

Other observations

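Regulators of respiratory chain genes were described from a list of 13 measured genes, of which 9 had positive log2 fold changes. Their median was 0.12 as deposited and 0.19 after quantile normalization. In the common-variance fit 0 passed over all genes, and 1 was higher at an unadjusted p under 0.05, against 3.95% of all genes. Tfb2m, a mitochondrial transcription factor, had a mean signal of 3649 in KO hearts and 2798 in WT hearts, with the 4 KO hearts above the 4 WT hearts (log2 fold change 0.37 with SE 0.13, adjusted p = 0.474, with 0.34 after quantile normalization). The estrogen-related receptor genes Esrra and Esrrg, whose products are coactivated by PGC-1 proteins in heart muscle, had 0.24 (SE 0.10) and 0.21 (SE 0.10), and the dimmer Esrrb had 0.54 (SE 0.29). Ppargc1a, which encodes PGC-1α, had 0.12 with an SE of 0.26, and Tfam, which packages mitochondrial DNA, had −0.05 (SE 0.17). Nrf1 and Gabpa, the gene of an ETS factor, both had −0.15 (SE 0.16 and 0.18).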
